A study of Mus musculus with 3 samples.

Results

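The genes described here encode the Rab GTPases, SNAREs, coat proteins and sorting complexes that move membrane vesicles between the compartments of a cell. They were chosen by the spelling of the gene symbol, as the probe sets whose single annotated symbol begins with Rab and a number, Stx, Stxbp, Vamp, Snap, Vps, Sec and a number, or names a COPI coat subunit. The choice gave 135 of the 12488 probe sets of the array table and 102 of the 8251 genes. Spelling brought in some genes with other functions, among them Vps72, a histone exchange factor, Sec1, a fucosyltransferase, the lipid-binding Sec14l1 and Sec14l2, and the translocon and signal peptidase genes of the Sec group.

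The RNA came from the livers of male mice, homozygous for a disrupted apolipoprotein E gene on a mixed C57BL/6JxOLA129 background, which were 3 months old when assigned to a diet and were fed it for 12 weeks. The t10,c12-CLA diet held 1.0% by weight of the trans-10, cis-12 isomer of conjugated linoleic acid, the c9,t11-CLA diet held 1.0% of the cis-9, trans-11 isomer, and the control diet held 1.0% of linoleic acid. By the design text the diets were semi-purified with fat giving 30% of the energy, while the sample labels call the diet western, and 9, 10 and 10 mice were assigned in that order. Each diet is represented by 1 array of Affymetrix MAS5 signals (linear hybridisation intensities), so no difference between diets has a replicate check and no test was possible. The labels do not say whether 1 liver or pooled livers went onto an array, all mice lacked apolipoprotein E, and whole liver RNA mixes every cell type of the organ.

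Vesicles bud from a donor membrane under a protein coat, such as COPII at the endoplasmic reticulum (ER) or COPI at the Golgi. Rab GTPases, switched on by GTP, mark each compartment and recruit tethers. SNARE proteins on the vesicle (R-SNAREs, mostly VAMPs) and on the target membrane (Q-SNAREs, the syntaxins and SNAPs) then zip together under the control of Sec1/Munc18 proteins and fuse the membranes. In hepatocytes this machinery exports plasma proteins and lipoproteins, recycles receptors and delivers cargo to lysosomes.

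Of the 102 genes, 71 (69.6%) gave a signal above the floor of 490.3, the median of all signals, on all 3 arrays, against 50.3% of all genes. Another 15 passed it on 1 or 2 arrays and 16 on none. A gene was measured in a comparison where its brightest probe set exceeded the floor on both arrays, and the size used for counting was 2-fold, a log2 difference of 1. Detection calls were not used here, so signals under the floor were treated as not distinguishable from background. Median signals were 486.5, 523.5 and 457.2 on the t10,c12-CLA, c9,t11-CLA and control arrays, with a trimmed mean of about 1501 on each.

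Liver markers were bright, with 7 of 7 hepatocyte genes on the array above the floor on every array and a summed signal of 202735, 362102 and 209252 on the t10,c12-CLA, c9,t11-CLA and control arrays. All 3 bile duct markers and all 3 platelet markers on the array were below the floor everywhere. The 11 macrophage markers summed to 94421, 61318 and 68583 in the same order, with 10 above the floor on all arrays. The 5 endothelial markers summed to 14212, 11801 and 11588, and the 6 stellate cell markers to 31960, 26477 and 33678. Of 11 neuronal and neuroendocrine markers 7 were below the floor on every array, and the list summed to 5554, 3367 and 4299, with Tubb3 alone above the floor on all 3. Neutrophil markers summed to 2183, 4183 and 2667, lymphocyte markers to 2942, 3300 and 3534, mast cell markers to 1754, 2177 and 1602, pancreatic markers to 4109, 4606 and 4574, and erythroid markers to 37570, 36667 and 36397. Fewer cells of a type and less RNA per cell cannot be told apart in such samples, and the part of these shifts in the results below was not tested.

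Few vesicle traffic genes were past 2-fold between the diets, and the counts are too small to set apart from the share of all genes. Between the t10,c12-CLA and control arrays, 2 of 74 measured genes differed at least 2-fold (2.70%), where 3.92% of all measured genes did. Between the c9,t11-CLA and control arrays it was 1 of 71 (1.41%), against 5.76% of all genes, and between the t10,c12-CLA and c9,t11-CLA arrays 3 of 76 (3.95%), against 6.02%. By direction, 2 were higher (all genes 2.05%) and 0 lower (1.87%) on t10,c12-CLA, 0 were higher (2.98%) and 1 lower (2.78%) on c9,t11-CLA, and 3 were higher (3.47%) and 0 lower (2.56%) on t10,c12-CLA relative to c9,t11-CLA. Stx2 was past 2-fold in all 3 comparisons, Copb2 in both comparisons of the t10,c12-CLA array and Sec22b between the isomers. The median log2 difference was 0.12 for t10,c12-CLA minus control (all genes -0.01), -0.06 for c9,t11-CLA minus control (all genes 0.02) and 0.10 for t10,c12-CLA minus c9,t11-CLA (all genes -0.05). Both comparisons with control share the control array.

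**Figure D1:**
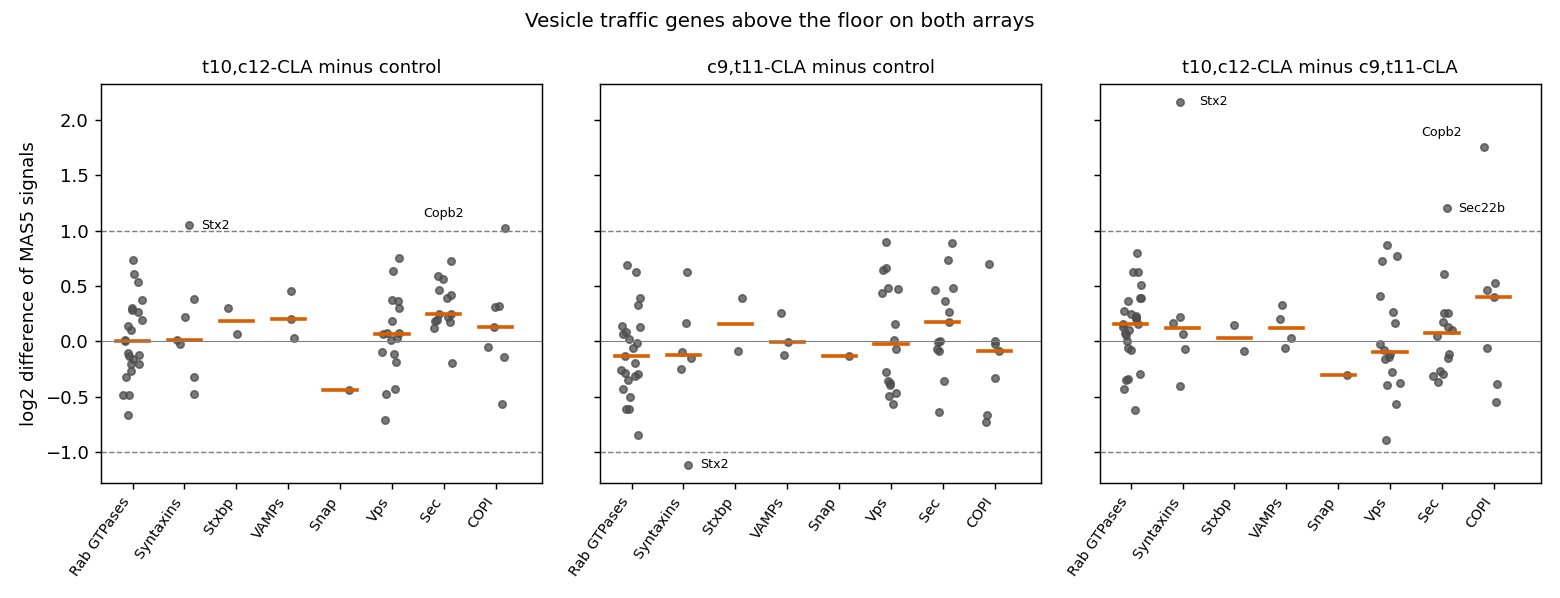
Log2 difference of MAS5 signals (vertical axis) of each measured vesicle traffic gene, by family (horizontal axis), for the 3 comparisons. Points are genes, orange bars family medians, dashed lines the 2-fold size; the labelled genes Stx2, Copb2 and Sec22b lie beyond it.

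Differences under 0.5 on the log2 scale were found for 61 of 74 genes (82.4%) between the t10,c12-CLA and control arrays, against 76.3% of all measured genes. The same held for 53 of 71 (74.6%, all genes 69.2%) between c9,t11-CLA and control and for 60 of 76 (78.9%, all genes 69.2%) between the isomers. The SD of the log2 differences over the genes of the list was 0.37, 0.44 and 0.49 in these comparisons, where all genes gave 0.47, 0.53 and 0.55. The list was brighter than all genes, with 69.6% against 50.3% above the floor on all 3 arrays. These shares and SDs were not matched for signal. A technical yardstick, from genes with a second measured probe set, put the SD of a single log2 difference at 0.40, 0.49 and 0.50 over 566, 529 and 553 pairs. It holds measurement and probe design but no variation between mice, and most vesicle traffic genes lay within it. Pairs within the list alone gave 0.40, 0.55 and 0.63 over 14, 13 and 12 pairs, each above the SD of the list in that comparison.

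**Figure D2:**
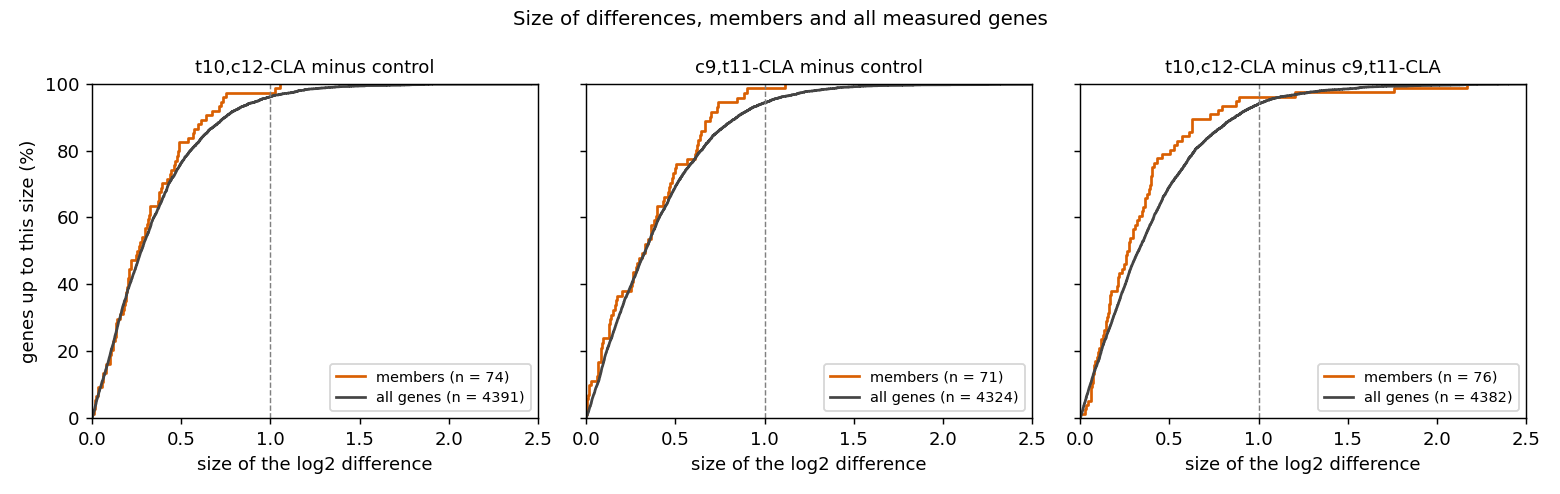
Cumulative share of genes (vertical axis, percent) up to each size of log2 difference (horizontal axis) for measured vesicle traffic genes (orange) and all measured genes (grey), in the 3 comparisons. At the dashed 2-fold line the vesicle traffic curve stands at or above that of all genes, with 1.41% to 3.95% of genes beyond it.

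Among the plasma membrane Q-SNAREs, Stx2, syntaxin 2 (also known as epimorphin), on chromosome 5, gave signals of 2438 on t10,c12-CLA, 543 on c9,t11-CLA and 1176 on control. It was 2.07-fold higher on t10,c12-CLA than on control (log2 difference 1.05), 2.17-fold lower on c9,t11-CLA than on control (-1.11), and 4.49-fold higher on t10,c12-CLA than on c9,t11-CLA (2.17). Among the genes of the list with both arrays above the floor, it had the largest difference in each comparison. The c9,t11-CLA signal lay just above the floor of 490.3, and Stx2 had a single probe set on the array, so no second reading was available. The summed macrophage markers (94421, 61318 and 68583) and the summed neuronal markers (5554, 3367 and 4299) had the same order over the t10,c12-CLA, c9,t11-CLA and control arrays. Of single markers, 4 of 11 macrophage genes (Cd68, C1qa, C1qb and C1qc) and 2 of 11 neuronal genes (Tubb3 and Chga) had that order. Highest on c9,t11-CLA, where Stx2 was lowest, were 2 of the 11 macrophage and 6 of the 11 neuronal genes. Tubb3 alone gave 3553, 1200 and 2376 of the neuronal sums. These lists were set beside Stx2 for their order, which no other marker list had in its sum. The stellate cell sum was also lowest on c9,t11-CLA but highest on control (31960, 26477 and 33678). Of its 6 genes 2 had the Stx2 order, as had 1 of 7 hepatocyte, 1 of 5 endothelial and 1 of 3 erythroid genes. The part of any list in the Stx2 result was not tested.

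Copb2, on chromosome 9, encodes the beta-prime subunit of the COPI coat. Its brighter probe set gave 15004 on t10,c12-CLA, 4439 on c9,t11-CLA and 7373 on control, 2.03-fold higher on t10,c12-CLA than on control (log2 difference 1.03) and 3.38-fold higher than on c9,t11-CLA (1.76). A second probe set of the gene gave 866, 972 and 1194 in the same order. Its log2 differences were -0.46 for t10,c12-CLA minus control and -0.17 between the isomers, so the probe sets disagreed in direction. The identifiers of both carry a mark for compromised probe selection or shared sequence.

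Sec22b, on chromosome 3, is an R-SNARE of traffic between the ER and the Golgi. Its brighter probe set gave 2274 on t10,c12-CLA, 988 on c9,t11-CLA and 1535 on control, 2.30-fold higher on t10,c12-CLA than on c9,t11-CLA (log2 difference 1.20). The differences from control were 0.57 for t10,c12-CLA and -0.64 for c9,t11-CLA. The second probe set gave 560, 609 and 548, with a log2 difference of -0.12 between the isomers. For Sec22b too, the isomer difference was seen by 1 of 2 probe sets.

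**Figure D3:**
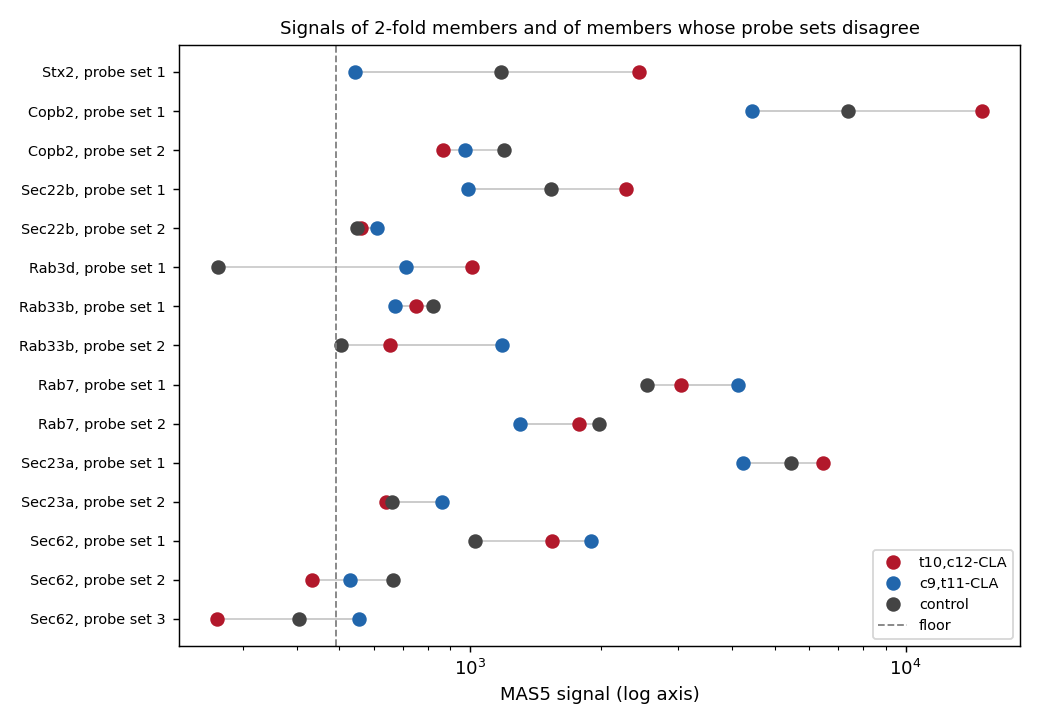
MAS5 signals (log axis) on the t10,c12-CLA (red), c9,t11-CLA (blue) and control (grey) arrays for each probe set of the 2-fold genes, of Rab3d and of the genes whose probe sets disagree. The dashed line is the floor of 490.3; second probe sets of Copb2, Sec22b, Rab33b, Rab7, Sec23a and Sec62 run in another order than the first.

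The promoters of Stx2, Copb2 and Sec22b are shown because these were the genes past 2-fold, each of them brighter with t10,c12-CLA than with c9,t11-CLA. Windows from 250 bases before to 50 after a RefSeq start site, build GRCm38.p6, were found for 86 of the 102 genes, 101 windows in all. Capitals mark 3 motifs searched on both strands: the core of the unfolded protein response element (UPRE, TGACGTG), the E-box of the lysosomal CLEAR element (CACGTG) and the CCAAT box (CCAAT), none of which contains another. The Stx2 window shown, of 2 in RefSeq, is chr5:129008523-129008822 on the minus strand and holds none of these. The other Stx2 window, chr5:128990187-128990486 on the minus strand and not printed, holds 3 CCAAT boxes, all read in the direction opposite to the gene, 243 and 90 bases before the start site and 21 after it. The Copb2 window is chr9:98563481-98563780 on the plus strand and the Sec22b window chr3:97900977-97901276 on the plus strand.
Stx2: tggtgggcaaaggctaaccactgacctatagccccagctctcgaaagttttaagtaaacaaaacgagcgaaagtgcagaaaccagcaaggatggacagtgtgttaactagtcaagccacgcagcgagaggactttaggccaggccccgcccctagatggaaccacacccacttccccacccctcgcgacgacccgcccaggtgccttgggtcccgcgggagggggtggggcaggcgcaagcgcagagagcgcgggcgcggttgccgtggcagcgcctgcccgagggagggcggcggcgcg
Copb2: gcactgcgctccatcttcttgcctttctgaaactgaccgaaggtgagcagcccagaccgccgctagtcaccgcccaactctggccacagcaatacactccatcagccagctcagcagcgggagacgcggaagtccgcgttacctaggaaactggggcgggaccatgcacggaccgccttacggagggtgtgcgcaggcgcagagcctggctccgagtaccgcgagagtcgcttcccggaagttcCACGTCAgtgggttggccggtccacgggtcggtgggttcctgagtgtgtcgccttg
Sec22b: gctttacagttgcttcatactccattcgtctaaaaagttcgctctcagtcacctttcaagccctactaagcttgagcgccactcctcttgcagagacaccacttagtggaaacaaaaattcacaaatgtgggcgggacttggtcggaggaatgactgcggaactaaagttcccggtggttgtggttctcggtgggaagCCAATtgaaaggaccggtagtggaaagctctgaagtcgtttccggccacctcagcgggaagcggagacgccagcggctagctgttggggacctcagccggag

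The Copb2 window holds 1 UPRE core on the minus strand, 6 bases before the start site, and the Sec22b window 1 CCAAT box on the plus strand, 52 bases before it. No motif was shared by the 3 windows printed, while the other Stx2 window and the Sec22b window both hold CCAAT boxes. Over the 101 windows of the list the UPRE core was found in 4 (3.96%), against 2.01% of all 32851 windows, and the CACGTG E-box in 13 (12.9%), against 7.15%. The CCAAT box was found in 36 (35.6%), against 37.4%. These matches describe letters and show no binding.

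By their brightest probe sets, none of the Rab GTPases differed 2-fold with both arrays above the floor. Measured were 23 on t10,c12-CLA against control, 23 on c9,t11-CLA against control and 26 between the isomers. With 3.92%, 5.76% and 6.02% of all measured genes past 2-fold in these comparisons, a count of 0 among so few genes lies near that background. Their median log2 differences were 0.00, -0.13 and 0.16, and their values ran between -0.67 and 0.74, -0.85 and 0.69, and -0.63 and 0.80. Rab10, of basolateral and insulin-regulated delivery to the cell surface, had the highest value on t10,c12-CLA, with 1347, 777 and 809 on the t10,c12-CLA, c9,t11-CLA and control arrays (0.74 over control), and its second probe set stood at 0.23. Rab3a, of regulated exocytosis, had the lowest, with 1754, 1832 and 2794 (-0.67), close to its c9,t11-CLA difference of -0.61. Both isomer arrays therefore lay below the control array for Rab3a.

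Rab2a, which acts between the ER and the Golgi, had the lowest value of the family on c9,t11-CLA, with 3408, 2654 and 4776 on the t10,c12-CLA, c9,t11-CLA and control arrays and log2 differences from control of -0.49 and -0.85. Rab7, the Rab of late endosomes, had the highest on c9,t11-CLA, at 0.69, with 3056, 4118 and 2547. Its second probe set, with 1780, 1299 and 1972, stood at -0.60, so the direction for Rab7 is not settled by these probe sets. Rab33b, a Golgi Rab linked to autophagy, likewise gave -0.29 by one probe set and 1.23 by the other on c9,t11-CLA. The first, slightly brighter and used for the counts, has an identifier that carries a mark. The other, unmarked, gave 653, 1183 and 504 and was past 2-fold there, its control signal being just above the floor.

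Rab14, of Golgi to endosome traffic, gave 8268, 7396 and 9067 on the t10,c12-CLA, c9,t11-CLA and control arrays by its brightest probe set. Its other probe sets gave 363, 625 and 328, and 137, 663 and 69.8. Both passed the floor on c9,t11-CLA alone, where the brightest was lowest. Rab18, found on the ER and on lipid droplets, gave 5445, 5069 and 6294. Of 15 early and recycling endosome Rabs 11 were measured against control, with log2 differences between -0.33 and 0.61 on t10,c12-CLA (median 0.10) and between -0.35 and 0.63 on c9,t11-CLA (median 0.02). Rab21 and Rab25 were the highest of these on t10,c12-CLA, at 0.61 and 0.54, and Rab4b was the highest on c9,t11-CLA, at 0.63, with 0.00 on t10,c12-CLA. Rab5a, Rab5c and Rab11a, central to endocytosis and recycling, lay between -0.33 and 0.20 in both comparisons with control.

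Of the Rabs below the floor on some array, Rab3d, of secretory granules, gave 1011, 712 and 264 on the t10,c12-CLA, c9,t11-CLA and control arrays. Against control it was higher at least 2.06-fold with t10,c12-CLA and at least 1.45-fold with c9,t11-CLA, the bound being the bright signal over the floor. Rab5b, an endosomal Rab, gave 769, 767 and 202, at least 1.57-fold and 1.56-fold higher. Rab34, a Golgi and ciliary Rab, gave 969, 418 and 400 and exceeded either other array by at least 1.98-fold with t10,c12-CLA. Rab31, Rab23, Rab20, Rab33a, Rab35, Rab3b and Rab8b were near or below the floor, with no signal above 547 on any array.

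SNARE genes other than Stx2 and Sec22b stayed inside 2-fold where measured. Stx4a, a plasma membrane syntaxin, gave 1549, 2049 and 1330 on the t10,c12-CLA, c9,t11-CLA and control arrays, a log2 difference of 0.62 on c9,t11-CLA and 0.22 on t10,c12-CLA. Stx5a, of the Golgi, gave 2631, 2508 and 2675 and was almost the same on all 3 arrays. Stx8, of late endosomes, gave 518, 409 and 723, with -0.48 on t10,c12-CLA and at least 1.47-fold lower on c9,t11-CLA. The syntaxins of internal membranes Stx7, Stx12 and Stx18 lay between -0.33 and 0.39 over control, and Stx3 and Stx6 were below the floor on every array.

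Vamp8, an R-SNARE of endosomes and secretory granules, gave 19725, 17136 and 14351 on the t10,c12-CLA, c9,t11-CLA and control arrays, log2 differences of 0.46 and 0.26 over control. A second Vamp8 probe set, with 5867, 5893 and 6677, stood at -0.19 and -0.18. Vamp2, of exocytosis, lay within 0.33 in all comparisons and Vamp4, of the trans-Golgi, within 0.03, although a second Vamp4 probe set gave 561, 301 and 688, below the floor on c9,t11-CLA. Vamp5 gave 770, 806 and 471, at least 1.57-fold and 1.64-fold higher on t10,c12-CLA and c9,t11-CLA than on control. By their brightest probe sets Vamp3 and Vamp7 passed the floor on the control array alone, at 555 and 503, and Vamp1 on none. A second Vamp7 probe set gave 501, 159 and 405, just above the floor on t10,c12-CLA alone.

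Snap23, the SNAP of non-neuronal cells and a partner of plasma membrane syntaxins, gave 465, 463 and 949 on the t10,c12-CLA, c9,t11-CLA and control arrays. It was at least 1.94-fold lower on both isomer arrays, just inside 2-fold as a bound. Snap47 gave 3091, 3830 and 4203, with differences of -0.44 and -0.13. The neuronal genes Snap25 and Snap91 were below the floor everywhere, and Stx1a passed it on the control array alone, at 537. The Sec1/Munc18 genes Stxbp2 and Stxbp3 lay between -0.08 and 0.39 over control.

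Of 5 genes of the ER translocon, the channel through which secretory proteins enter the ER, 3 were measured against control, and by their brightest probe sets these were above control on both isomer arrays, none by 2-fold. Sec61a1, the channel subunit, gave 9849, 12261 and 7353 on the t10,c12-CLA, c9,t11-CLA and control arrays, and its second probe set 3480, 4260 and 3831. Sec61b, the beta subunit, gave 6160, 5748 and 4465, and Sec62, of post-translational import, gave 1542, 1892 and 1023. The 3 measured genes had a median log2 difference of 0.46 on t10,c12-CLA and 0.74 on c9,t11-CLA, with all 3 above 0 in both, also with equal medians and after quantile normalization of the arrays. Of all measured genes, 49.1% were above 0 on t10,c12-CLA and 52.2% on c9,t11-CLA.

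Other readings of the translocon genes did not all show the same. By its second probe set Sec61a1 stood at -0.14 on t10,c12-CLA and 0.15 on c9,t11-CLA. The other probe sets of Sec62 gave 433, 528 and 664, and 262, 555 and 404, on the t10,c12-CLA, c9,t11-CLA and control arrays, so both were lower on t10,c12-CLA than on control, with the t10,c12-CLA signals below the floor. The first of these was above the floor on c9,t11-CLA and control and stood at -0.33 on c9,t11-CLA. By the brightest Sec62 probe set, whose identifier carries a mark, that difference was 0.89. The other 12 measured genes of the translocon and signal recognition list, outside the 102, had medians of -0.21 on t10,c12-CLA and -0.03 on c9,t11-CLA. Sec61a1 and Sec62 were highest on the c9,t11-CLA array, as were 6 of 7 hepatocyte markers, Ttr being lowest there, while Sec61b was highest on t10,c12-CLA. The part of the hepatocyte markers in these values was not tested.

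**Figure D4:**
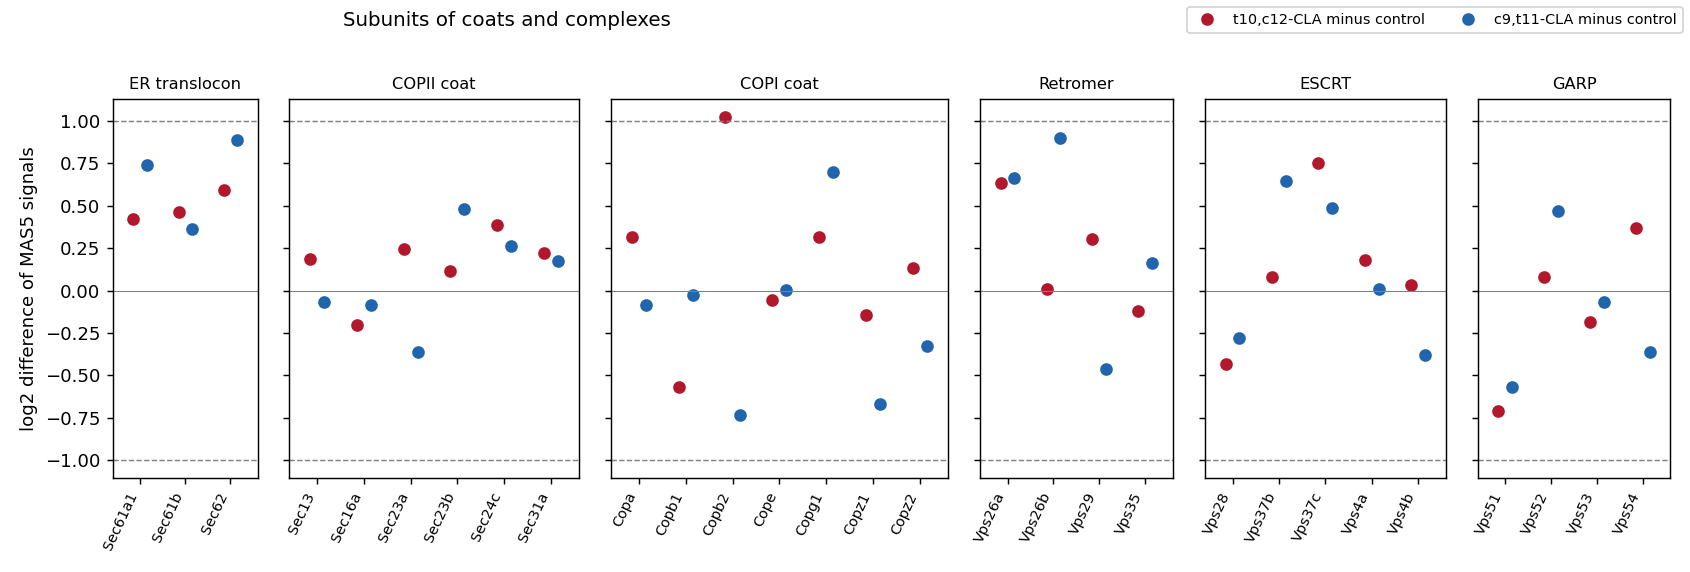
Log2 difference from control (vertical axis) of each measured subunit of 6 complexes (panels) for t10,c12-CLA (red) and c9,t11-CLA (blue). The 3 measured translocon subunits, each by its brightest probe set, lie above 0 for both diets, while subunits of COPI, retromer, ESCRT and GARP scatter on both sides of 0.

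COPII coat genes lay close to control. Of 6 measured, 5 were above 0 on t10,c12-CLA (median 0.20) and 3 on c9,t11-CLA (median 0.05). Sec23a, of the inner coat, gave 6472, 4239 and 5450 on the t10,c12-CLA, c9,t11-CLA and control arrays, a log2 difference of 0.61 between the isomers, and its second probe set gave -0.43. Sec16a, which organises ER exit sites, was the lowest of the Sec genes on t10,c12-CLA, at -0.20. Sec24b was below the floor everywhere and Sec23ip passed it on t10,c12-CLA alone, at 533.

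The remaining Sec genes belong to other steps of secretion or to lipid binding. The signal peptidase genes Sec11a and Sec11c lay at 0.17 and 0.19 on t10,c12-CLA and at 0.00 and 0.46 on c9,t11-CLA. Sec14l2, a lipid transfer protein also called supernatant protein factor, gave 11651, 9760 and 9791 on the t10,c12-CLA, c9,t11-CLA and control arrays. Sec14l1 was the highest of the family on t10,c12-CLA, at 0.72, with 825, 202 and 500, its control signal being just above the floor. Its other probe set gave 179, 687 and 485, in another order. Sec63, a partner of Sec62, gave 499, 553 and 412, close to the floor, and Sec1 and Sec61a2 were below it on every array.

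All 7 COPI genes were measured, and they did not move as a group. Against control, 4 were above 0 on t10,c12-CLA (median 0.13) and 2 on c9,t11-CLA (median -0.08). Copb1, the beta subunit, was the lowest on t10,c12-CLA, at -0.57, with 1458, 2127 and 2163 on the t10,c12-CLA, c9,t11-CLA and control arrays. Copg1, the gamma subunit, was the highest on c9,t11-CLA, at 0.70, with 2395, 3133 and 1927. Its second probe set gave 1033.4, 478.8 and 860.5, lowest and below the floor on c9,t11-CLA, so the probe sets disagreed in direction there. Copa, the alpha subunit, lay at 0.32 and -0.08.

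The Vps genes encode sorting complexes of endosomes and the Golgi. In the retromer, which returns receptors from endosomes, Vps26b gave 823, 1526 and 818 on the t10,c12-CLA, c9,t11-CLA and control arrays. Its log2 difference of 0.90 on c9,t11-CLA was the highest of the Vps genes, with 0.01 on t10,c12-CLA. Its subunit Vps29 ran the other way, with 2205, 1293 and 1784, and Vps26a lay at 0.64 on t10,c12-CLA and 0.66 on c9,t11-CLA. Vps35, the core subunit, lay at -0.12 and 0.16, so the retromer subunits differed among themselves.

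In ESCRT, which sorts ubiquitinated cargo into lysosomes, Vps37c was the highest Vps gene on t10,c12-CLA, at 0.75, with 2164, 1802 and 1287 on the t10,c12-CLA, c9,t11-CLA and control arrays. Vps28 lay at -0.43 and -0.28. In GARP, which tethers endosome-derived vesicles at the Golgi, Vps51 was the lowest on both isomers, at -0.71 and -0.57, with 883, 976 and 1446. Its partners Vps52, Vps53 and Vps54 lay between -0.36 and 0.47. Vps16, of the HOPS tether of lysosomes, gave 683, 293 and 731, at least 1.49-fold lower on c9,t11-CLA than on control. Vps13c, Vps37a and Vps45 were below the floor on every array.

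Between the isomers, given at the same dose and time and differing in the position and geometry of their double bonds, 71 genes of the list can be compared with every array above the floor. Of these 11 (15.5%) were higher on t10,c12-CLA than on c9,t11-CLA by at least 0.5 on the log2 scale and 4 (5.63%) were lower, where all genes gave 14.7% and 16.2%. Of the 11, 10 (90.9%) lay on opposite sides of control on the CLA arrays, and of the 4 lower genes 0 did. Selecting for a large isomer difference favours opposite sides, and 384 of the 611 genes of the whole array chosen alike as higher (62.8%) and 400 of the 673 chosen as lower (59.4%) lay so. The 10 included the late endosome tether subunit Vps41 (0.87 between the isomers), Vps29 (0.77), Vps54 (0.73) and the recycling GTPase Rab4a (0.63). Of the 10, only Copb2, Sec22b, Sec23a and Rab10 had a second probe set. These second probe sets gave isomer differences of -0.17, -0.12, -0.43 and 0.16, so none repeated a difference of 0.5 in that direction. For Rab10 and Rab21 the c9,t11-CLA array lay almost at control, at -0.06 and -0.02. The 4 lower genes were Vps26b (-0.89), Rab4b (-0.63), Vps37b (-0.57) and Copb1 (-0.54). With 1 array per diet no test or interval of these isomer differences can be given.

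Other genes of these pathways, from 8 lists of coats, tethers and regulators, were also within 2-fold in nearly every case. Of the 114 listed genes on the array that are outside the 102, 84 were measured on t10,c12-CLA against control with none past 2-fold, against 3.92% of all genes. On c9,t11-CLA 1 of 84 was higher and 1 lower (all genes 2.98% and 2.78%), and between the isomers 1 of 87 was higher (all genes 3.47%). Bounds, where 1 array alone was above the floor, were counted apart. On t10,c12-CLA against control 1 of 12 was at least 2-fold lower (all genes 19 of 719). On c9,t11-CLA against control 2 of 10 were higher and 1 lower (all genes 64 and 40 of 989). Between the isomers 1 of 8 was lower (all genes 56 of 970). Srp54b, of the signal recognition particle, had a log2 difference of 1.41 on c9,t11-CLA over control, with 1793 on c9,t11-CLA and 674 on control. The Golgi GTPase Arf4 was just past 2-fold lower on c9,t11-CLA, with 1956 on c9,t11-CLA and 3914 on control. Ap1s1, a clathrin adaptor subunit, stood at 1.04 between the isomers, with 3976 on t10,c12-CLA and 1929 on c9,t11-CLA. Each of these genes had a single probe set, and the identifiers for Srp54b and Arf4 carry a mark.

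Per list, counting genes inside and outside the 102 together, the median log2 differences on t10,c12-CLA and on c9,t11-CLA over control were -0.02 and -0.09 for COPII and ER exit and -0.05 and -0.09 for COPI and Golgi. They were 0.01 and 0.10 for the translocon and signal recognition, 0.00 and -0.02 for early and recycling endosomes, and 0.05 and 0.01 for late endosomes and lysosome fusion. They were 0.05 and -0.07 for plasma membrane exocytosis, -0.03 and -0.08 for the fusion cycle and Rab regulators, and 0.17 and 0.17 for clathrin and its adaptors. Between the isomers the medians were 0.07, 0.01, -0.14, 0.07, 0.16, 0.02, 0.43 and -0.06 in the same order of lists, where all genes gave -0.05. The fusion cycle and Rab regulators, at 0.43, had 8 measured genes with an SD of 0.70, and 3 of the 8 differed by less than 0.5. Clathrin and adaptor genes had 18 of 21 above 0 on t10,c12-CLA and 11 of 20 on c9,t11-CLA, where 49.1% and 52.2% of all genes were above 0. With both arrays above the floor none was past 2-fold, against 3.92% and 5.76% of all genes. Of the 2 with 1 array above it on c9,t11-CLA against control, 1 was at least 2-fold higher (all genes 64 of 989).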

How the data were processed

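Liver RNA of 3 diet groups was read on 1 array each. Per the labels' protocols, biotinylated cRNA was made from 8 µg of total RNA. The deposited values are MAS5 signal intensities on a linear scale, per the submitters' processing notes; the version, detection calls and pooling are not given in the sources used here. Equal trimmed means show that the arrays were scaled before deposit, and no further scaling was applied. Symbols came from the platform annotation, with identifiers checked in a RefSeq table of GRCm38.p6; all 135 probe sets matched. A further 2 probe sets with several symbols were left out. Each gene's value is that of its brightest probe set (highest mean of log2 signals), which ranks probe sets and not transcripts. Log2 differences were taken above the floor of 490.3 on both arrays. With 1 array per diet there is no p-value, and the number of arrays limits the precision. Named were genes past 2-fold, at-least bounds of 2 or more, the brightest, highest and lowest gene per family, and genes whose probe sets disagreed by over 1; others were added after their values were seen. The genes, lists and rules were chosen with earlier results of these data known. Alternatives were equal medians, quantile normalization, floors at the 25th and 75th percentile, a pseudocount of 50, the mean over probe sets, no marked probe sets and symbols as annotated. The counting steps were run on simulated data with less noise than the yardstick and with changes in bright genes only. That run says nothing on the reliability of the 2-fold counts. Python 3.11.15, numpy 2.4.6, pandas 2.3.3 and matplotlib 3.10.9 were used.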

Additional observations from a re-analysis of the deposited data

Results flagged for a closer look

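Stx2 differed from control at least 2-fold in opposite directions on the CLA arrays, with log2 differences of 1.05 on t10,c12-CLA and -1.11 on c9,t11-CLA. The difference between these was not tested, since each diet had 1 array.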

How the results depend on the processing

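Stx2 was past 2-fold between the isomers wherever it was measured. With the floor at the 75th percentile it was not measured, and the counts of 2-fold genes were 1 for t10,c12-CLA against control, 0 for c9,t11-CLA against control and 1 between the isomers, Copb2 in both cases (all genes 3.40%, 3.54% and 4.53%). A floor set at the 25th percentile admits dim signals, and with it the counts were 9, 8 and 7, where the share of all genes past 2-fold was 8.20%, 13.4% and 13.1%. With equal array medians no gene was past 2-fold on t10,c12-CLA against control (0), and 2 were on c9,t11-CLA against control, Stx2 and Rab2a (all genes 4.24% and 7.10%). That scaling moved the median of all genes to -0.16 and of the list to -0.22 on c9,t11-CLA against control, and the list to 0.21 between the isomers. Genes above and below 0 were then 40 and 35, 21 and 50, and 51 and 23 in the 3 comparisons, against 49 and 25, 31 and 40, and 45 and 31 as reported. With the mean over probe sets the count was 1 on t10,c12-CLA against control and 1 between the isomers, Stx2 in both (all genes 3.62% and 5.85%); Copb2 fell out at 0.28 and 0.80 and Sec22b at 0.54. Without marked probe sets it was 1 on t10,c12-CLA against control (Stx2) and 2 on c9,t11-CLA against control (Stx2 and Rab33b), where all genes gave 4.05% and 5.52%. Of 624 values of named genes under the alternatives, 612 moved by less than the yardstick SD and 12 by more. Many of the 612 could not move: the other floors and the symbols as annotated leave a gene's value unchanged. Equal medians shift all values of a comparison alike. All 12 came from settings that change the probe sets used, 8 with the mean over probe sets and 4 without marked probe sets. No value that was past 2-fold as reported changed sign, but Rab33b on c9,t11-CLA against control, at -0.29 as reported, turned to 1.23 without marked probe sets. No paired analysis was possible because each diet has 1 array. Detection near the floor limits the dim genes.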

Other observations

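Second probe sets agreed poorly in direction for these genes, whose differences were small. The pair pointed the same way in 5 of 14 genes for t10,c12-CLA against control, in 3 of 13 for c9,t11-CLA against control and in 3 of 12 between the isomers. Over all genes it was 337 of 566, 287 of 529 and 313 of 553. The gaps within pairs were not all small. They exceeded 1 on the log2 scale in 1 of 14, 3 of 13 and 4 of 12 genes of the list. Over all genes they did so in 44 of 566, 71 of 529 and 71 of 553.

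Of the 71 genes above the floor on all arrays, those in the brighter part by mean signal had smaller differences. The SD between the isomers was 0.41 over 36 genes above a mean signal of 2306 and 0.59 over 35 below it. Some probe sets below the floor had large ratios: a Rab2a probe set gave 140, 199 and 5.3 on the t10,c12-CLA, c9,t11-CLA and control arrays, and a Rab1a probe set 194, 327 and 22.6, while the brighter probe set of Rab1a gave 1344, 1712 and 1617.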
